A study of Homo sapiens with 3 samples.

Results

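Peaks that stood close together in the peak lists of acetylated histone H2A were followed here. A peak counted as clustered when its summit, the position of the highest signal, lay within 2000 bp of the summit of another peak of the same list on the same chromosome. By this rule 1067 of 23975 smoke peaks were clustered, in 526 clusters, and 1208 of 27010 air peaks, in 599 clusters. The data are chromatin immunoprecipitation and sequencing (ChIP-seq) of UMUC3, an established human bladder cancer line, using an antibody to H2A acetylated on lysine 130. One list came from cells given 10% cigarette smoke media for 3 days and the other from air-exposed cells, with 1 library each; the series also has an input library, which was not analysed here. The treatment text with the smoke media stands on the air sample too, and the groups here follow each sample's treatment label. All cells were the same line, and no transgene or deletion is named in the labels. With a single library on each side, differences below rest on no replicates and carry no p-value. The members were chosen by their summit positions alone, read from the lists themselves.

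Histone H2A is a core protein of the nucleosome, around which DNA is wound. Acetyl groups on histone lysines are written by acetyltransferases, removed by deacetylases and read by bromodomain proteins. Acetylated histones often mark active promoters and enhancers, where a stretch of modified nucleosomes can be cut by a peak caller into several neighbouring peaks. An isolated pile of a few reads gives a peak as well.

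Sequence is shown for the protein-coding promoters that a clustered peak covered, since these are the places where the data bear on a start site. A promoter window was reached by 2 of 1007 clustered smoke peaks, 0.199%, where all smoke peaks had 0.235%, and by 1 of 1115 clustered air peaks, 0.0897%, where all air peaks had 0.264%. The window runs from 250 bases before to 50 bases after a start site. The sequences are those of RefSeq (GRCh38.p14, the patched form of hg38), written 5′ to 3′ in the direction of the gene, with the bases under the peak in capitals. They belong to PARPBP, whose product binds PARP1 and restrains homologous recombination (chr12:102119933-102120232, plus strand, smoke), to LMAN1, a cargo receptor between endoplasmic reticulum and Golgi (chr18:59359216-59359515, minus strand, smoke), and to KCNJ16, an inwardly rectifying potassium channel (chr17:70074975-70075274, plus strand, air).
PARPBP: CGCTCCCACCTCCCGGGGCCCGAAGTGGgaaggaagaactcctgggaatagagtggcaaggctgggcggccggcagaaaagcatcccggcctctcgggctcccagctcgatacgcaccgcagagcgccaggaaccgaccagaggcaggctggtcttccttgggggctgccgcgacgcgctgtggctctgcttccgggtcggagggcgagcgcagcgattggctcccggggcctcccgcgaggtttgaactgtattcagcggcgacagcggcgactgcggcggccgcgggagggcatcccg
LMAN1: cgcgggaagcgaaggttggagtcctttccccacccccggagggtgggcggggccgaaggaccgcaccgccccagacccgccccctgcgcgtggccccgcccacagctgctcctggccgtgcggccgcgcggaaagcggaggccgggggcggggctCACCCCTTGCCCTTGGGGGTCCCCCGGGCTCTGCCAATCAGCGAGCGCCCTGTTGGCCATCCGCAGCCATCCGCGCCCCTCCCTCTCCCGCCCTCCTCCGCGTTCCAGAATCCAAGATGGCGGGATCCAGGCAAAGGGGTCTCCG
KCNJ16: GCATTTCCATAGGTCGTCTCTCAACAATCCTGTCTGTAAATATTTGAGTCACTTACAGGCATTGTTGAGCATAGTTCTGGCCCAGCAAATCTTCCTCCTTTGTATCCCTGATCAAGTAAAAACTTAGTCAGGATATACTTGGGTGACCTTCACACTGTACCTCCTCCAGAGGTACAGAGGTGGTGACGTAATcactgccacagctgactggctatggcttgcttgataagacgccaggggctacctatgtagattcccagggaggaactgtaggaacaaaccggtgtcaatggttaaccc

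The 3 windows differed in base composition. The PARPBP and LMAN1 windows had GC contents of 70.0% and 74.3% with 33 and 31 CG dinucleotides, both above the medians of 62.3% and 21 over 22199 protein-coding windows. The KCNJ16 window had 47.0% and 4. The letters CCAAT, searched on both strands, were in the PARPBP and LMAN1 windows and not in that of KCNJ16, and in 34.7% of all protein-coding windows. TATAAA, on both strands, was in none of the 3 and in 9.47% of all. At PARPBP the peak touched the outer 28 bases of the window and its summit lay 443 bp before the start site. At LMAN1 the peak covered 145 bases, and its summit lay 110 bp after the start site. At KCNJ16 it covered 192 bases, with the summit 295 bp before the start site. A letter match is a description and shows no bound factor.

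Clusters were almost all pairs. In smoke 512 clusters held 2 peaks, 13 held 3 and 1 held 4; in air 589 held 2 and 10 held 3. The median cluster, from the first base of its first peak to the last base of its last, spanned 1444 bp in smoke (459 to 3919) and 1511 bp in air (497 to 3752). Together clusters covered 0.756 Mb in smoke and 0.912 Mb in air. Peaks of a cluster never touched: the smallest gap between 2 neighbouring edges was 152 bp in smoke and 155 bp in air, with medians of 898 and 873 bp. The widest spacings inside the rule were 2000, 1995 and 1993 bp in smoke, with deposited folds of 2.69 to 4.30, and the nearest outside it were 2004, 2008 and 2011 bp, with folds of 2.87 to 4.82. In air the spacings on either side were 1999, 1996 and 1988 bp (folds 2.61 to 4.64) and 2001, 2005 and 2006 bp (3.47 to 5.22). These are the values that chose the members, given as a description.

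Averaged over the first 2 kb, smoke summit pairs were about as common, per kb of distance, as pairs farther apart, and air pairs somewhat fewer. That average joins a sparse first kb and a fuller second kb. Smoke had 273 pairs per kb of distance up to 2 kb, 289 from 2 to 5 kb, 261 from 5 to 10 kb and 263 from 10 to 20 kb. Air had 306, 360, 344 and 345. The first kb held 218 pairs in smoke and 229 in air, below the rates at 10 to 20 kb. The second held 328 and 383, above those rates. In smoke this was the highest of the 1 kb bins up to 20 kb, while in air other bins reached 392 and 399. Peaks of 1 list cannot overlap, and the closest neighbouring summits were 275 bp apart in smoke and 330 bp in air, so the first bin could not fill. Its low count lay below 500 bp, with 46 neighbouring summits in smoke and 40 in air, against 172 and 189 from 500 to 1000 bp and 169 and 196 from 1000 to 1500 bp. Pairs of a smoke and an air summit have no such limit, and 889 lay within 1 kb of each other, 673 at 1 to 2 kb, and 587 per kb at 10 to 20 kb. The names of both lists share a control code whose meaning the labels do not give, and its part in the closeness of smoke and air summits was not tested.

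**Figure D1:**
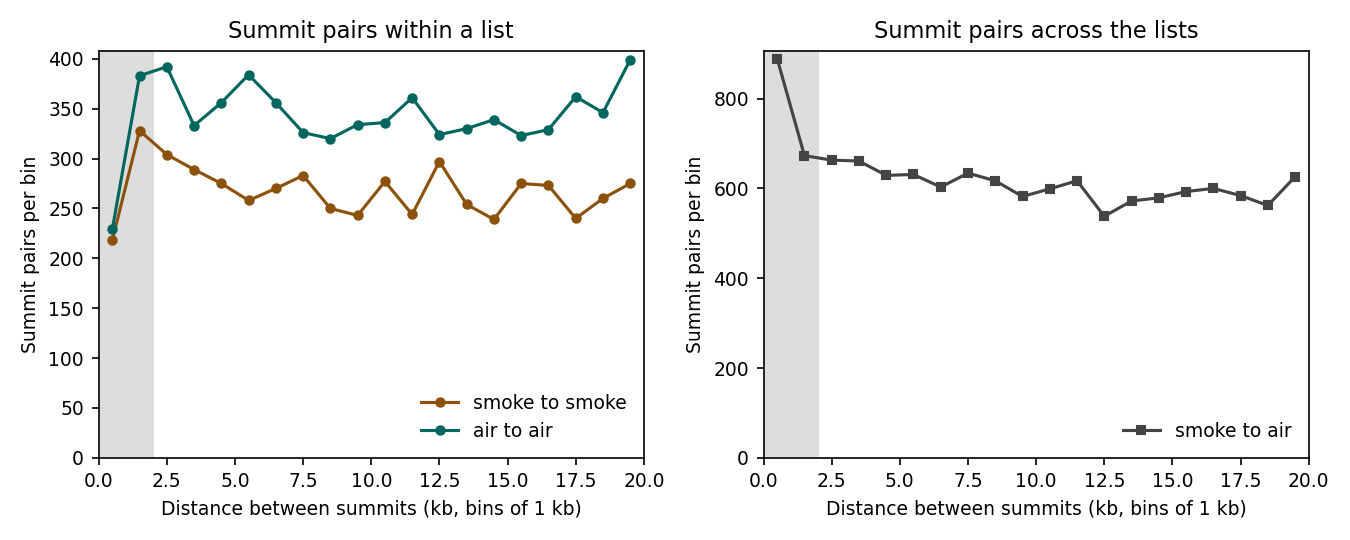
Number of summit pairs in each 1 kb of distance up to 20 kb, within the smoke list and within the air list (left) and between smoke and air summits (right), with the 2 kb of the rule shaded. Within a list the first bin is the lowest (218 in smoke, 229 in air), where summits closer than 275 bp do not occur, and across the lists it is the highest (889).

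Clustered peaks were as weak as the rest. The authors' fold was matched by the number of fragments at the summit plus 1, divided by the background plus 1, and their −log10 p by the Poisson chance of more fragments than that. Solving both for each peak gave a whole number of fragments for 100% of peaks in each list, within 0.0001 of the deposited −log10 p. Clustered smoke peaks had a median of 6 fragments at the summit (4 to 16), as did the other smoke peaks (4 to 119). Clustered air peaks had a median of 6 (3 to 12), as did the other air peaks (3 to 15). A whole cluster rested on a median of 13 summit fragments in smoke (8 to 28) and 12 in air (8 to 26). The median background at the summit was 0.861 fragments in smoke and 0.724 in air, the same for clustered and other peaks. This was the lowest background of each list. It was held by 67.6% of clustered and 64.6% of other smoke peaks, and by 55.6% and 53.8% in air, so the medians had to be equal. The small fragment numbers are the depth behind every value below, and total read depth is unknown.

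Fold, width and q were also alike. The median deposited fold was 3.76 for clustered and for other smoke peaks, and 3.99 and 3.93 in air. The median width was 222 bp against 225 bp in smoke, and 274 bp against 277.5 bp in air. A q of 0.05 or lower, by the authors' caller, was reached by 458 of 1067 clustered smoke peaks, 42.9% (95% Wilson interval 40.0 to 45.9), where the whole list had 44.4%. In air it was reached by 731 of 1208, 60.5% (57.7 to 63.2), where the whole list had 60.4%. Every peak of the cluster passed in 85 smoke clusters (16.2%) and 212 air clusters (35.4%), and none passed in 159 (30.2%) and 87 (14.5%). Neighbours of a cluster were no closer in strength than neighbours farther apart: their fragments differed by at most 1 in 56.2% of smoke pairs up to 2 kb (52.0 to 60.3) and in 57.5% of those 2 to 10 kb apart (55.3 to 59.7). The air shares were 58.3% (54.3 to 62.1) and 57.7% (55.8 to 59.6). All intervals here cover counting error only, and since the peaks of a cluster are not independent they are too narrow.

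**Figure D2:**
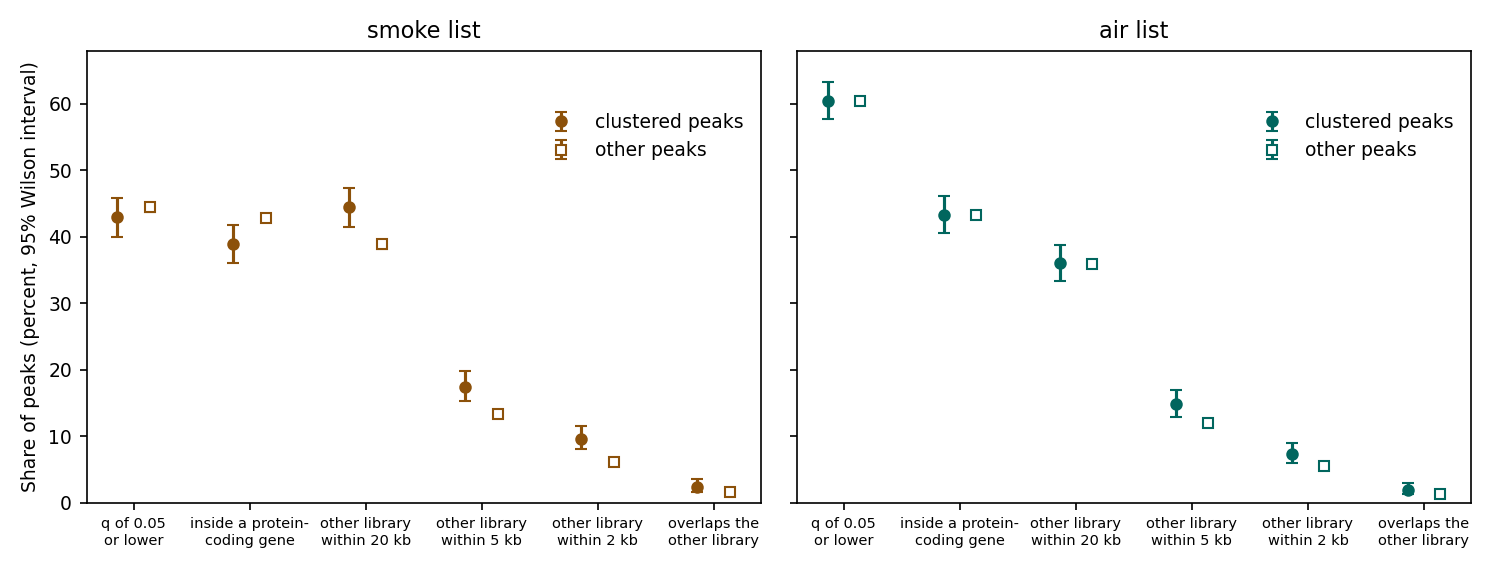
Share of clustered peaks (filled circles) and of all other peaks (open squares) of each list with a q of 0.05 or lower, inside a protein-coding gene, near a summit of the other library, or overlapping one of its peaks, in percent with 95% Wilson intervals. Clustered smoke peaks stand at 42.9% for q and 9.65% for an air summit within 2 kb, and other smoke peaks at 44.4% and 6.17%.

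The largest cluster lay in smoke, 17.8 kb from FBXO38, an F-box subunit of a ubiquitin ligase, on chromosome 5 from 148362281 to 148366199. Its 4 peaks had folds of 3.34, 4.30, 3.76 and 5.37 on 6, 7, 6 and 9 fragments, and air had no peak there. Over all smoke clusters 6.27% held an air peak. The next were 3 smoke peaks of folds 5.37, 4.30 and 4.45 on chromosome 12 from 39872303 to 39874882, inside the overlapping genes SLC2A13, a myo-inositol transporter, and REDIC1. A further 3 lay inside CNTN1, a neural adhesion protein of the immunoglobulin family, on chromosome 12 from 40772645 to 40774544, with folds of 4.30, 4.84 and 4.30. One air peak of 5 fragments overlapped the first of these. Smoke also had 3 peaks inside CCDC169 and its readthrough gene with SOHLH2 on chromosome 13 from 36231294 to 36233181 (folds 4.30, 3.66 and 4.30) and 3 in a region of chromosome 12 from 34572189 to 34575027, 544 kb from ALG10. In the ALG10 region an air peak of fold 5.80 lay between the smoke peaks without touching them.

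The largest air clusters held 3 peaks. The one with the strongest weakest peak lay inside IMMP2L, a subunit of the inner mitochondrial membrane peptidase, on chromosome 7 from 111441165 to 111443511, with folds of 4.04, 6.38 and 4.69 on 8, 10 and 8 fragments. Others lay inside RIMS2, a scaffold of the presynaptic active zone (chromosome 8 from 104022483 to 104024370, folds 3.595, 3.74 and 3.595), and inside SESN1, a stress-induced inhibitor of mTORC1 (chromosome 6 from 109073730 to 109076450, folds 4.38, 3.78 and 3.15). The remaining 2 were outside genes, 423 kb from BPNT2 on chromosome 8 and 350 kb from ADGRB3 on chromosome 6. Smoke had no peak in any of these 5, and over all air clusters 4.51% held a smoke peak. Of all clusters with 3 or more peaks, 3 of 14 in smoke and 5 of 10 in air had a summit inside a protein-coding gene, and 2 and 1 held a peak of the other library.

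**Figure D3:**
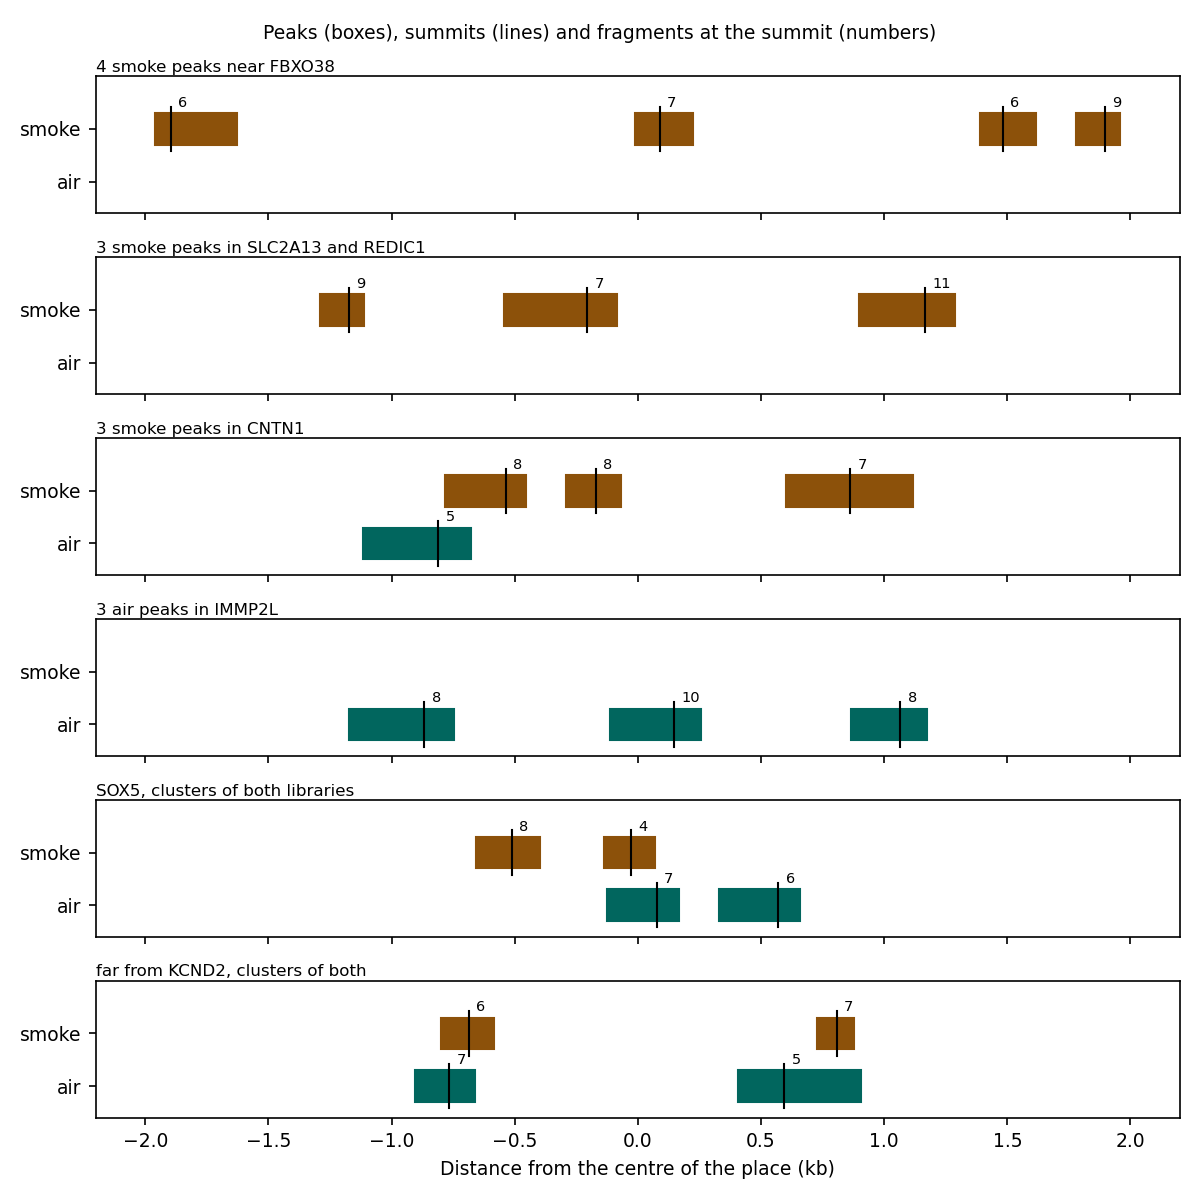
Positions of peaks (boxes) and summits (lines) at 6 clusters, with the fragments at each summit as numbers, smoke above air, against the distance from the centre of the place in kb. The cluster near FBXO38 has 4 smoke peaks on 6, 7, 6 and 9 fragments and no air peak, and at SOX5 and far from KCND2 both libraries have 2 peaks.

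Ranked by their weakest peak, the first 5 clusters of each list were pairs, as nearly all clusters were, and 9 of the 10 lay outside protein-coding genes. Over all clusters 60.6% in smoke and 56.4% in air had no summit in such a gene. In smoke these were 12.6 kb from the carbonic anhydrase gene CA3 (chromosome 8, folds 5.62 and 5.26), 132 kb from the somatostatin receptor gene SSTR1 (chromosome 14, both 5.37), 1509 kb from MAT2B (chromosome 5, 5.37 and 5.26) and 88.8 kb from TES, a focal adhesion protein (chromosome 7, 6.45 and 4.74). The fifth lay inside CNOT4, a ubiquitin ligase tied to the CCR4-NOT complex, on chromosome 7 from 135408576 to 135409343 (5.37 and 4.78). The air pairs were 658 kb from EDIL3, an integrin ligand (chromosome 5, 6.77 and 5.22), 378 kb from CCSER2, 793 kb from LRRC4C, 267 kb from TBC1D32 and 54.9 kb from PRDM9, the histone methyltransferase of meiotic recombination hotspots (chromosome 5, 5.22 and 4.93). None of these 10 held a peak of the other library, which 6.27% of all smoke and 4.51% of all air clusters did, so nothing is read from it. Clusters in which every peak had a −log10 q of at least 2 numbered 20 in smoke and 34 in air.

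Few clusters were at the same place in both libraries. An air peak overlapped 33 of 526 smoke clusters by at least 1 bp, 6.27% (4.50 to 8.68), and a smoke peak overlapped 27 of 599 air clusters, 4.51% (3.12 to 6.48). In 25 of the 33 and 23 of the 27 the other library's peak overlapped a member peak, and in the remaining 8 and 4 it lay between members. A cluster is longer than a peak, so single peaks are the fairer comparison. Of clustered smoke peaks 26 overlapped an air peak, 2.44% (1.67 to 3.55), where all smoke peaks had 1.58%. Of clustered air peaks 24 overlapped a smoke peak, 1.99% (1.34 to 2.94), where all air peaks had 1.41%.

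The share of clustered peaks with a summit of the other library nearby depended on the distance and the list. An air summit lay within 2 kb of 103 clustered smoke peaks, 9.65% (8.02 to 11.6), against 6.32% of all smoke peaks and 6.17% (5.86 to 6.49) of those not clustered. A smoke summit lay within 2 kb of 89 clustered air peaks, 7.37% (6.03 to 8.98), against 5.57% of all and 5.49% (5.22 to 5.77) of those not clustered. With 1 peak per cluster, an alternative chosen after the data were examined, the shares were 9.13% (6.95 to 11.9) and 7.85% (5.95 to 10.3), so neither interval reached the share of peaks not clustered. Within 1 kb the smoke share was 5.90% (4.64 to 7.48) against 3.58% of peaks not clustered, and the air share 3.81% (2.87 to 5.04) against 3.22%, which its interval takes in. Within 20 kb they were 44.4% against 38.9% in smoke and 36.1% against 35.9% in air. Clustered peaks also lay in regions that were richer in peaks of the other library. Around clustered smoke peaks the mean number of air summits within 1 Mb was 25.6, against 22.96 around other smoke peaks, and around clustered air peaks that of smoke summits was 22.4 against 20.4. The part of this regional density in the shares was not tested.

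Both libraries had a cluster at the same place 2 times. Inside SOX5, a transcription factor of cartilage and neural development, the smoke cluster ran from 23708717 to 23709446 on chromosome 12 and the air cluster from 23709252 to 23710034. The smoke peaks had 8 and 4 fragments (folds 4.84 and 2.69) and the air peaks 7 and 6 (4.64 and 4.06). The weaker smoke peak, whose q was 0.301, overlapped the stronger air peak, and their summits were 105 bp apart. The second place lay 674 kb from KCND2, a voltage-gated potassium channel gene, on chromosome 7. Its smoke peaks ran from 119597324 to 119597538 and from 119598849 to 119599001 (folds 3.76 and 4.30), and its air peaks from 119597215 to 119597460 and from 119598530 to 119599028 (4.64 and 3.48). This was the only cluster of either list in which 2 members were each overlapped by a peak of the other, and the first summits were 78 bp apart.

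Under the 2000 bp rule, clustered smoke peaks lay inside protein-coding genes slightly less often than the rest of the smoke list. The difference was less clear at other distances, and the share in air moved with the threshold. In smoke 415 of 1067 summits were inside such a gene, 38.9% (36.01 to 41.9), where all smoke peaks had 42.7% and those not clustered 42.9% (42.2 to 43.5). In air 523 of 1208 were, 43.3% (40.5 to 46.1), where all air peaks had 43.3%. With a summit distance of 1000 bp it was 50.1% (45.5 to 54.7) against 43.2% of other air peaks, and among peaks with a −log10 q of at least 2 it was 30% (20.5 to 41.5) against 43.4%. Counted once per cluster by its strongest peak, the smoke share was 39.2% (35.1 to 43.4), an interval that takes in the share of peaks not clustered. At 1000 bp the smoke share was 40.4% (35.9 to 45.1) against 42.7% of other smoke peaks. At 5000 bp it was 41.3% (39.5 to 43.2) against 42.9%, and both intervals take in the share of the other peaks. Inside a long noncoding RNA gene only lay 13.4% of clustered smoke and 14.9% of clustered air summits, against 13.96% and 13.5% of other peaks. Clusters were rarely split by a gene's border, 2 in smoke and 4 in air. Outside genes and more than 100 kb from any protein-coding gene end lay 193 smoke clusters (36.7%) and 183 air clusters (30.6%). No such share over all listed peaks is set beside these counts, so nothing is read from them.

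A cluster was held by 199 of 20037 protein-coding genes in smoke, 0.993%, and by 252 in air, 1.26%; with as many air as smoke peaks, the air count was 195. These genes were long. The median length was 24.1 kb over all protein-coding genes, 104 kb over genes with a smoke peak and 203 kb over genes with a smoke cluster, with 101 and 210 kb for the air peak and cluster. A cluster takes at least 2 peaks, whereas a gene with a peak may hold a single one, so these groups are not alike. The part of the rule in the difference was not tested. Of genes up to 50 kb 0.196% held a smoke and 0.254% an air cluster, and of the 69 genes over 1000 kb 23.2% and 33.3% did. Per Mb of gene the numbers ran closer, from 0.117 smoke clusters in genes up to 50 kb to 0.246 in genes of 500 to 1000 kb and 0.188 in longer ones. In air they ran from 0.152 to 0.288 and 0.292. The gene table gives gene spans without exons, so exon and intron were not told apart.

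**Figure D4:**
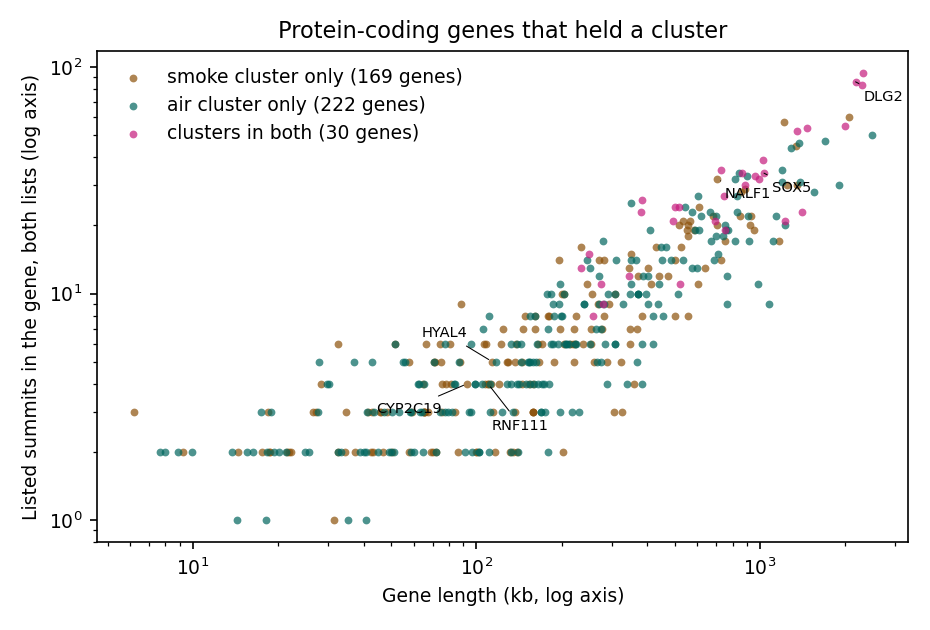
Listed summits of both lists inside each protein-coding gene that held a cluster, against the gene's length in kb, on log axes, coloured by the library of the cluster. Genes with clusters of both libraries (30) lie at the long end, with a median length of 752 kb, and CYP2C19, RNF111 and HYAL4 are shorter genes with 2 smoke clusters each.

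Genes with several clusters were few, 10 in smoke and 14 in air. NALF1, an auxiliary protein of the NALCN sodium leak channel (chromosome 13 from 107163510 to 107867496), held 3 smoke clusters and 0 air clusters, from 15 smoke and 17 air peaks. Its 6 clustered peaks had folds of 2.85 to 4.30 on 5 to 7 fragments, and air peaks of 5 and 6 fragments touched 2 of the 3 clusters. Others with 2 smoke clusters were ASTN2 (18 smoke peaks), CNTN5 (26) and LRRC4C (27), neuronal membrane or adhesion proteins, and SIK3 (7), a salt-inducible kinase. VPS13B, a lipid transfer protein, held 2 smoke and 1 air cluster, and UTRN, the dystrophin relative utrophin, 2 smoke and 0 air clusters. Over all genes with a smoke cluster, 15.1% held an air cluster.

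Of the genes with 2 smoke clusters, 3 had no smoke peak outside them. CYP2C19, a liver cytochrome P450 that oxidises many drugs (chromosome 10 from 94762681 to 94855547, 92.9 kb), held 4 smoke peaks and 0 air peaks. One pair ran from 94781155 to 94782156 with folds of 4.30 and 4.30 on 7 and 7 fragments, and the other from 94822786 to 94824555 with folds of 3.76 and 4.84 on 6 and 8. RNF111, the ubiquitin ligase Arkadia of TGF-beta signalling (chromosome 15 from 58987663 to 59097419), held 4 smoke peaks on 6, 6, 10 and 6 fragments and 0 air peaks. Over all genes with a smoke cluster 20.6% had no air peak, and over those with an air cluster 25.4% had no smoke peak. HYAL4, of the hyaluronidase family (chromosome 7 from 123763708 to 123877481), held 4 smoke peaks on 6, 9, 8 and 8 fragments and 1 air peak. No gene held 4 or more air peaks that were all clustered. At any number of peaks, genes whose every peak was clustered numbered 58 in smoke and 57 in air. Of these, 54 and 52 had 2 peaks. CYP2C19, RNF111 and HYAL4 stand out by the counts that chose them. CYP2C19 has close paralogs beside it, between which short reads can be hard to place. The part of read placement in its peaks was not tested.

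In air, DLG2, a postsynaptic scaffold protein (chromosome 11 from 83455012 to 85628373), led with 3 clusters and had 1 in smoke, among 44 air and 42 smoke peaks. One air pair had folds of 6.25 and 4.06 on 11 and 6 fragments, from 84446783 to 84448328, and a smoke peak of 7 fragments overlapped the second. Another 13 genes held 2 air clusters each. The first 7 of them by symbol were ADGRV1, a very large adhesion receptor (16 air peaks), ANKRD44, a regulatory subunit of protein phosphatase 6 (6), CDKAL1, a tRNA-modifying enzyme (11), CNTN4, a contactin (19), DNM3, a dynamin (10), EYS, a photoreceptor matrix protein (31), and GLIS3, a transcription factor of pancreatic beta cells (15). The rest were SOX5, MLLT3, NCAM2, NRXN3, ZFPM2 and LOC124902897, the last with 4 of its 5 air peaks clustered. ADGRV1, CDKAL1, DNM3 and GLIS3 held 11, 7, 3 and 8 smoke peaks and no smoke cluster. Over all genes with an air cluster, 11.9% held a smoke cluster. In ANKRD44 the 4 clustered air peaks lay in a stretch from 197295007 to 197300662 on chromosome 2, with folds of 4.04, 3.48, 4.49 and 4.06.

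Clusters of both libraries were held by 30 of 20037 protein-coding genes, 0.150%. They were 15.1% of the genes with a smoke cluster and 11.9% of those with an air cluster. Over all protein-coding genes 1.26% held an air and 0.993% a smoke cluster, and over the 69 genes above 1000 kb 33.3% and 23.2% did. The 30 were between 234 and 2304 kb long. In 29 of them the clusters of the 2 libraries did not overlap and lay 25.8 to 1267 kb apart, with a median of 159 kb. SOX5 was the exception. Over all clusters, 2 of 526 in smoke (0.380%) and 2 of 599 in air (0.334%) overlapped a cluster of the other library. The closest after it were in DDX10, a helicase of ribosome formation, at 25.8 kb and in FBN2, a fibrillin of elastic fibres, at 35.4 kb. In DLG2, CNTN4, ASTN2, LRRC4C, EYS and ANKRD44, the nearest clusters were 159, 89.9, 277, 126, 78.2 and 255 kb apart. DDX10 and FBN2 were picked out here for these short distances.

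Clusters at start sites were rare. A summit within 1 kb of a protein-coding start site was found for 3 of 1007 clustered smoke peaks, 0.298% (0.101 to 0.872), where all smoke peaks had 0.86%. In air it was found for 9 of 1115, 0.807% (0.425 to 1.53), where all air peaks had 0.88%. Start sites on chromosome 8 were not used here. The 3 smoke clusters lay at LMAN1, at MINAR2, and inside NUP37, a nuclear pore subunit, next to its start and that of PARPBP, which runs the other way. At LMAN1 the 2 peaks had folds of 4.27 and 3.76 on 7 and 6 fragments, at MINAR2 3.76 and 3.76 on 6 and 6, and at NUP37 and PARPBP 2.87 and 4.78 on 5 and 9. Air had no peak in these 3. Over all clusters 6.27% in smoke and 4.51% in air held a peak of the other library. The 7 air clusters lay at CNTN6, NXPE1, KCNJ16, BOD1L1, OSTF1, NTN4 and EXOSC8, with weakest peaks of 4 or 5 fragments. The clusters at CNTN6, a contactin, and at BOD1L1, a protein that protects stalled replication forks, were overlapped by a smoke peak, of folds 5.37 and 4.84.

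Further clusters lay within 1 kb of either end of a gene. By their weakest peak the first in air were at the immune receptor gene TLR1 (chromosome 4 from 38804773 to 38805961, folds 4.69 and 5.22, the nearest summit 0.199 kb from the gene's end), at STXBP3, a regulator of vesicle fusion (folds 4.06 and 5.22), at the olfactory receptor gene OR2A5, at HTR3B, a serotonin receptor subunit, and at C17orf67. In smoke, beside LMAN1 and MINAR2, they were at RGS7, a regulator of G protein signalling (folds 3.76 and 4.30), at FXR1, an RNA-binding protein (2.85 and 4.15), and at ZFP37 (2.87 and 5.37).

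FASN, the fatty acid synthase of the series title, held 0 peaks of either list and so no cluster. None of the 30 genes of fatty acid synthesis held a cluster in either library, although 9 had a smoke and 10 an air peak. Likewise no cluster lay in the 39 genes of fatty acid oxidation and lipid storage, the 20 of the aryl hydrocarbon receptor pathway and drug metabolism, the 22 luminal and basal urothelial markers or the 25 blood cell markers. These lists had median lengths of 7.37 to 52.1 kb, and the share over all genes was 0.993% and 1.26%. Among 30 large genes of common fragile sites (median length 1375 kb) 5 held a smoke cluster, 10 an air cluster and 3 both. Of all 69 protein-coding genes over 1000 kb, 23.2% held a smoke and 33.3% an air cluster. The fragile site genes with both were CNTNAP2, DLG2 and PTPRD, the first an adhesion protein of the neurexin family and the last a receptor tyrosine phosphatase. MACROD2 and DIAPH2 had theirs in smoke alone, and IMMP2L, LRP1B, DPYD, AUTS2, RBFOX1, NAALADL2 and DAB1 in air alone. The strongest of these pairs in smoke was in MACROD2 (folds 4.84 and 5.26), and in CNTNAP2 the smoke and air clusters lay 1267 kb apart.

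The share of peaks that were clustered was 4.45% in smoke (4.197 to 4.72) and 4.47% in air (4.23 to 4.73), and it differed between chromosomes. In both lists chromosomes 11, 12 and 13 lay above these shares, with intervals that left them out. Chromosome 13 had 6.99% in smoke and 5.92% in air, chromosome 12 6.29% and 5.61%, and chromosome 11 5.81% and 6.09%. Chromosomes 18 and 19 lay below in both, with 1.48% and 1.48% in smoke and 1.84% and 1.42% in air. In air alone chromosomes 8 and 9 lay above, at 5.54% and 6.06%. Chromosomes 4, 16, 20 and X lay below in air alone, at 3.125%, 2.62%, 2.23% and 1.22%, and chromosome 17 in smoke alone, at 2.59%. Chromosome 3 was below in smoke, at 3.13%, and stood at 5.18% (4.33 to 6.19) in air. The part of peak density in these shares was not tested. The number of peaks behind a share ran from 145 on chromosome 22 in smoke to 2201 on chromosome 3 in air, so the small chromosomes are the least certain.

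**Figure D5:**
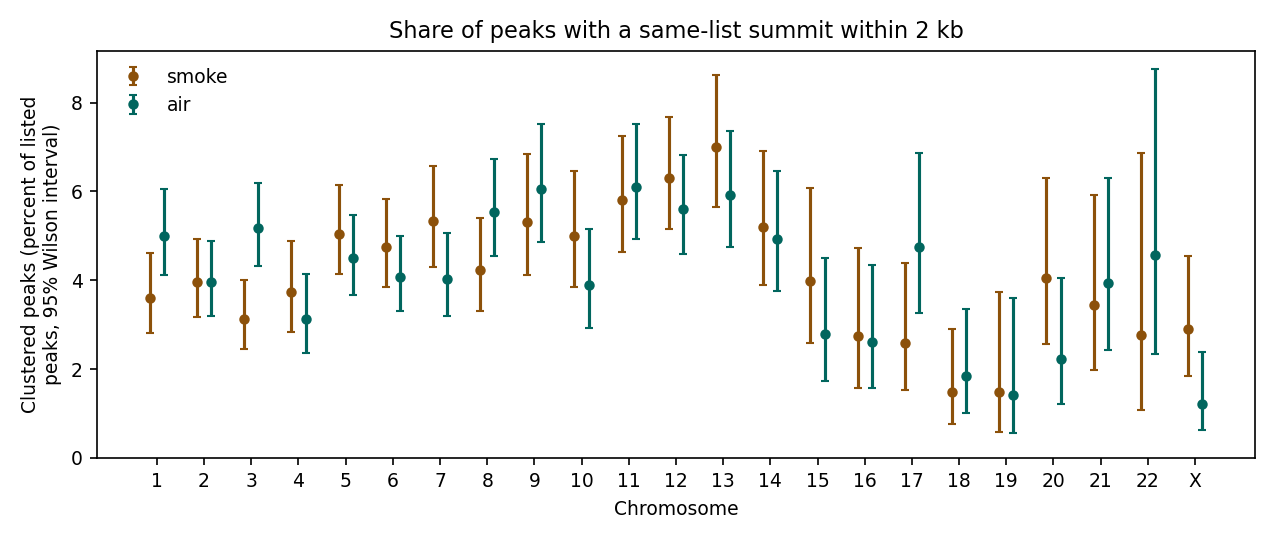
Share of listed peaks that were clustered, in percent with 95% Wilson intervals, for each chromosome in smoke and in air. Chromosomes 11, 12 and 13 lie between 5.61% and 6.99% in both lists, and chromosomes 18 and 19 between 1.42% and 1.84%.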

How the data were processed

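One narrowPeak list of 10 columns was deposited for smoke and one for air. The tools named per the submitters' processing notes are Bowtie2, MACS and MACS2, without their roles, and the builds are hg38 and mm10; coordinates of these human cells are read as hg38. Versions and settings are not stated. The deposited score is a whole number near 10 times the −log10 p. The deposited fold, −log10 p and −log10 q are the values of the authors' caller and were read within a list only. Summits were column 2 plus column 10, and clusters joined neighbouring summits up to 2000 bp apart. Genes and promoter windows came from RefSeq tables of GRCh38.p14 (20037 protein-coding genes, no start sites on chromosome 8 used). Computation used Python 3.11.15, pandas 2.3.3 and scipy 1.17.1, and was tested on simulated data. Members and lists were chosen with earlier results of these data known. Named clusters were those with most peaks and those with the strongest weakest peak (5 per library each), those overlapping in both libraries, those at gene ends (5 per library), the 8 genes with most clusters per library and in both, and genes of 6 fixed lists (165 genes, all matched). Start-site clusters were named after their values were seen. Alternatives covered the distance, a −log10 q of at least 2, midpoints, chromosome X, list size, the overlap, the gene set and 1 peak per cluster. Read depth per library is unknown.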

Additional observations from a re-analysis of the deposited data

How the results depend on the processing

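Fold, width, the share with q of 0.05 or lower and the place of clustered peaks stayed inside their 95% intervals without chromosome X and with distances between midpoints. A summit distance of 1000 bp left 1.81% of smoke and 1.69% of air peaks clustered, 1.40% and 0.439% of clusters with 3 or more peaks, 88, 115 and 8 genes with a smoke cluster, an air cluster and both, and 50.1% of clustered air summits in protein-coding genes (other air peaks 43.2%). A distance of 5000 bp gave 11.0% and 11.7% clustered, 6.66% and 6.81% with 3 or more peaks, 485, 598 and 100 genes, and 6.94% of air clusters with a smoke peak. Peaks of −log10 q of at least 2 alone had 0.965% and 1.04% clustered. Of their 20 smoke and 35 air clusters 0 had 3 or more peaks and 0 held a peak of the other library, which allows up to 15% and 8.57% by a limit of 3 counts and 16.1% and 9.89% by the Wilson interval; 7 genes held a smoke cluster, 11 an air cluster and 0 both. Their clustered peaks had median folds of 4.84 and 4.72 (others 4.84 and 4.69), an air width of 260.5 bp (others 249 bp), and 35% in smoke and 30% in air inside protein-coding genes (other peaks 43.6% and 43.4%). With the air list cut to the size of the smoke list, 4.06% of air peaks were clustered, in 484 clusters, and 195 genes held an air cluster, against 199 with a smoke cluster, and 26 both, so the larger air count of 252 genes did not hold at equal size. The share of clusters with a peak of the other library was 4.37% of smoke clusters when its summit had to lie inside, 9.89% and 7.68% of smoke and air clusters within 1 kb, 11.0% and 8.85% within 2 kb of a member summit, and 1.71% and 1.5025% for other-library peaks of −log10 q of at least 2. With 1 peak per cluster, the strongest, median folds were 4.30 in smoke and 4.17 in air and widths 212 and 256 bp, since the weaker peaks were left out. Inside any annotated gene lay 52.9% of clustered and 58.0% of other smoke summits, and 59.2% and 58.0% in air. No replicate could be left out with 1 library per group. No paired analysis was possible because each group has 1 library.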
